A study of Homo sapiens with 9 samples.

Results

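Aminoacyl-tRNA synthetases attach each amino acid to its transfer RNA. The genes described here were 38 of 39 listed genes of this family and its scaffold, found by symbol among the 18293 genes present in both count tables of the study. They comprised 20 genes for cytosolic enzymes, 15 of 16 listed genes for mitochondrial enzymes and the 3 scaffold genes AIMP1, AIMP2 and EEF1E1, and SARS2 was not analysed here. The membership rule used gene names and no measured value, though the list was chosen with earlier results of these data known. The RNA was poly-A selected and came from HMEC-1, immortalised endothelial cells of human dermal microvessels, kept at 5.5 mM glucose. Cells received AMI-5 at 100 µM in DMSO, AMI-1 at 100 µM in DMSO, or DMSO alone (Ctrl), each for 16 h and with 3 libraries per group. AMI-5 is a brominated xanthene salt and AMI-1 a pair of naphthalene sulfonic acids joined by a urea bridge, and the series describes both as methyltransferase inhibitors. All 9 libraries came from 1 cell line, and the labels do not say that the replicates were separate cultures, so p-values measure the spread between these libraries only.

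Human cells use a cytosolic and a mitochondrial set of these enzymes, and all of them are encoded in the nucleus. Of the cytosolic enzymes, 8 assemble with 3 scaffold proteins into the multisynthetase complex, and the others act outside it. GARS and KARS each encode the enzyme of both compartments. When a transfer RNA stays uncharged, the kinase GCN2 phosphorylates eIF2 and translation of the transcription factor ATF4 rises. Genes for amino acid synthesis, amino acid transport and many cytosolic synthetases are known ATF4 targets. In blood vessels, secreted forms of YARS and TARS are known to favour vessel growth and a fragment of WARS to restrain it.

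The site that ATF4 binds with a C/EBP partner is shown first, since its letters were found in promoter windows of cytosolic enzymes and in none of a mitochondrial enzyme. RefSeq promoter windows (GRCh38.p14, 250 bases before to 50 bases after a start) were matched for 32 of the 38 genes, and both strands were searched for TGATGCAA. The letters were in at least 1 window of 6 of the 16 cytosolic enzymes matched, AARS, CARS, IARS, MARS, NARS and TARS. They were in no window of the 13 mitochondrial enzymes and 3 scaffold genes matched, and in 0.866% of the 35116 windows of all genes. Counted by gene, as for the members, 0.699% of the 11014 tested genes with a matched window held them in at least 1 window. A looser form with any base at position 6, TGATGNAA, contains the first and added GARS among cytosolic and YARS2 among mitochondrial enzymes, against 3.62% of all windows and 2.76% of tested genes. The antioxidant response element TGACNNNGC was in 4 of 16 cytosolic, 2 of 13 mitochondrial and 2 of 3 scaffold genes, against 13.3% of all windows and 19.0% of tested genes. The E-box CACGTG was in 1 of 16 cytosolic, 3 of 13 mitochondrial and 1 of 3 scaffold genes, against 7.26% of all windows and 12.2% of tested genes. DARS, LARS, VARS, YARS, AARS2 and VARS2 had no entry. A match describes letters in a window and does not show that a factor binds there. The 6 sites, and the looser site of GARS, are printed 5′ to 3′ on the gene's own strand with 10 bases on each side and the site in capitals (TTGCATCA is the same site on the other strand).
AARS, chr16:70289676-70289703, minus strand: tttctcgcagTTGCATCAgccaagttag
CARS, chr11:3057408-3057435, minus strand: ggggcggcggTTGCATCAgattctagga
IARS, chr9:92293693-92293720, minus strand: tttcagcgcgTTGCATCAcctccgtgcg
MARS, chr12:57488054-57488081, plus strand: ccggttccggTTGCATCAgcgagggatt
NARS, chr18:57621805-57621832, minus strand: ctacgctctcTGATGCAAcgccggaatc
TARS, chr5:33440957-33440984, plus strand: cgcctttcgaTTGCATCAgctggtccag
GARS, chr7:30594835-30594862, plus strand: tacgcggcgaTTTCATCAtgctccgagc

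The first base of the site lay 187 bases before the annotated start in AARS and 33 bases before it in GARS. The site sat closer to the start in IARS, CARS and MARS, where its first base lay 13, 2 and 4 bases before it. Having 8 bases, the site spanned the start in CARS and MARS. CARS, TARS and GARS had 2 windows each, and their positions refer to the start of the window that held the site. In TARS and NARS the site lay within the transcribed part, with its first base at positions 3 and 15.

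The libraries held 14454113 to 24693020 counts, of which the 38 genes together took 0.374% to 0.477%. The lowest count of a member in any library was 63 (PARS2) and the highest 7753, and all 38 passed the filter on low counts. Libraries of the same replicate number deviated together, so number was a term in the fit: over the 38 genes it accounted for a median of 77.2% of the sum of squares and treatment for 12.2%. Defining endothelial genes were present for 12 of 14 markers, with PECAM1 and CLDN5 not in both tables, and their summed level was 783 to 1057 CPM (counts scaled to a common library total) in AMI-5, 989 to 1236 CPM in AMI-1 and 906 to 1258 CPM in Ctrl. Of the fibroblast and mural markers 5 of 6 were present, summing to 2339 to 3052 CPM in AMI-5, 2956 to 3869 CPM in AMI-1 and 2779 to 4086 CPM in Ctrl, nearly all of it COL1A1. Epithelial markers (2 of 5 present) summed to at most 85.8 CPM and leukocyte markers (1 of 4 present) to at most 2.96 CPM in any library. CPM values of single genes below use library sizes scaled by TMM (trimmed mean of M-values), and bulk counts cannot tell fewer cells from less RNA per cell.

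Cytosolic synthetases were expressed well above their mitochondrial counterparts. On a scale of CPM per kb of the longest annotated transcript, the median level of the cytosolic enzymes was 56.4 in AMI-5, 51.2 in AMI-1 and 51.5 in Ctrl. That of the mitochondrial enzymes was 9.27 in AMI-5, 9.48 in AMI-1 and 9.64 in Ctrl. The cytosolic set was led by GARS and SARS, at 108 CPM per kb each in AMI-5 and at 96.7 and 104 CPM per kb in Ctrl. CARS was its lowest gene at 13.0 CPM per kb in AMI-5 and 12.1 in Ctrl. Among mitochondrial enzymes IARS2 was highest (46.4 CPM per kb in AMI-5, 45.2 in AMI-1, 43.9 in Ctrl), and RARS2 followed at 20.3, 20.6 and 19.4 CPM per kb in the same groups. PARS2, which charges prolyl-tRNA in mitochondria, was lowest at 2.34 CPM per kb in AMI-5, 2.21 in AMI-1 and 2.19 in Ctrl. For 12 amino acids both partners were measured, and the cytosolic one was the higher per length in 12 pairs in AMI-5, 11 in AMI-1 and 11 in Ctrl. The exception was CARS, whose ratio to CARS2 was 1.13 in AMI-5, 0.966 in AMI-1 and 0.943 in Ctrl. Its direction rests on the length used: the ratio was 1.93, 1.64 and 1.60 in these groups with the union of exon bases, and 0.756, 0.644 and 0.628 with the median transcript. On the longest transcript MARS stood furthest above its partner, at 18.1 times MARS2 in AMI-5, 16.6 times in AMI-1 and 15.7 times in Ctrl. With the union of exon bases its ratio in AMI-5 was 9.24, beside 9.27 for AARS over AARS2, and with the median transcript it was 113. The size of the gap rests on the length used: the ratio of the class medians in Ctrl was 5.34 with the longest transcript, 9.44 with the median transcript and 4.78 with the union of exon bases, the last chosen after seeing the data.

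**Figure D1:**
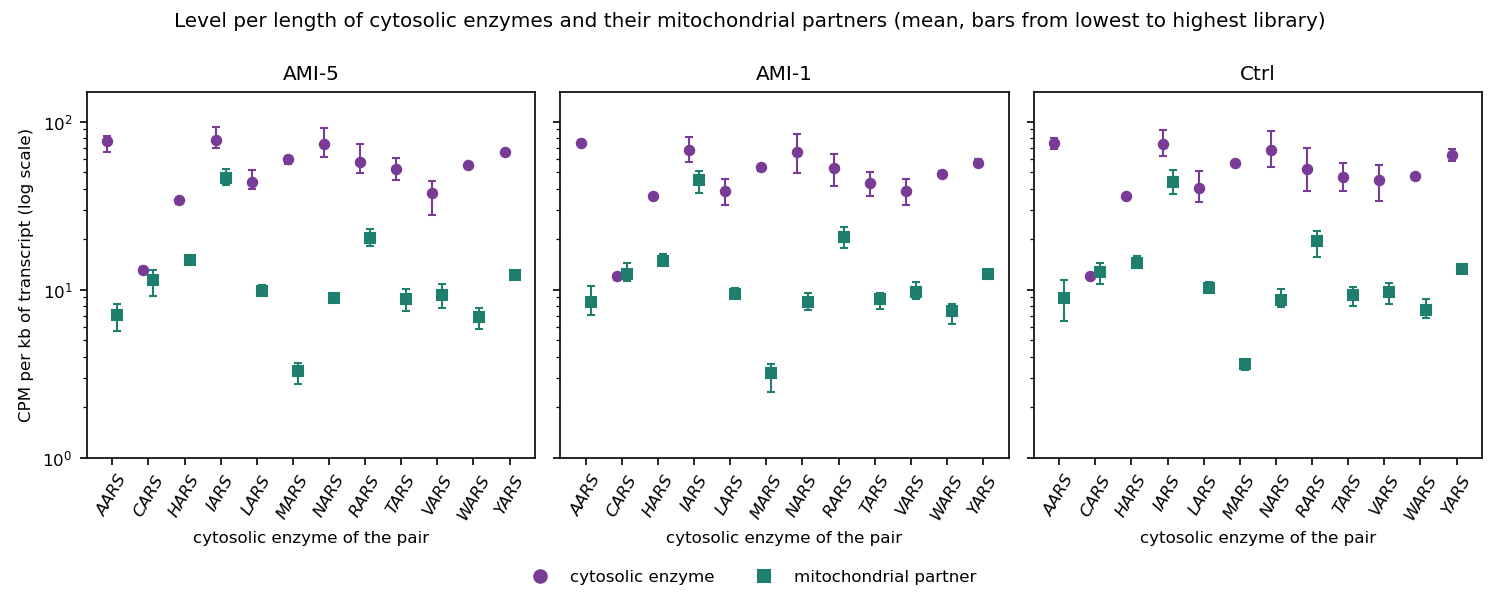
Levels of the 12 cytosolic enzymes that have a measured mitochondrial partner, in CPM per kb of the longest transcript on a log axis, for AMI-5, AMI-1 and Ctrl; points are means of 3 libraries and bars run from the lowest to the highest library. The cytosolic enzyme lies above its partner in all panels for 11 pairs, the points of CARS and CARS2 nearly coincide, and MARS and MARS2 lie furthest apart.

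AMI-5 against Ctrl asked which synthetase transcripts differed after exposure to the xanthene compound. WARS rose to 1.16 times its Ctrl level. VARS, AARS2 and EARS2 fell, to 0.839, 0.804 and 0.862 times theirs. These were 4 of 38 genes, against 10.9% of the 18284 genes tested that passed the same threshold (adjusted p under 0.05), so the share called was near that of all genes. By direction, 1 of 20 cytosolic enzymes rose, against 3.42% of all genes, and 1 cytosolic and 2 of 15 mitochondrial enzymes fell, against 7.45% of all genes. The scaffold genes had no call. At an unadjusted p under 0.05 there were 14 of the 38, against 27.2% of all genes.

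WARS, the cytosolic tryptophanyl-tRNA synthetase, had 169, 168 and 174 CPM in AMI-5 libraries, 147, 158 and 149 CPM in AMI-1 libraries and 148, 148 and 145 CPM in Ctrl libraries. Every AMI-5 library lay above every Ctrl and every AMI-1 library. The log2 fold change was 0.21 ± 0.053 (SE, adjusted p = 0.0181), and the pair differences were 0.19, 0.19 and 0.26. Its mitochondrial partner WARS2 had 19.8, 21.8 and 16.3 CPM in AMI-5 libraries, 17.5, 23.2 and 22.3 CPM in AMI-1 libraries and 19.1, 24.9 and 20.3 CPM in Ctrl libraries, and these groups overlapped. The WARS2 estimate was -0.15 ± 0.10 (SE, adjusted p = 0.352).

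VARS, which charges valyl-tRNA in the cytosol, had 191, 121 and 176 CPM in AMI-5 libraries, 198, 137 and 165 CPM in AMI-1 libraries and 239, 145 and 199 CPM in Ctrl libraries. Groups overlapped, with replicate 2 low throughout, and AMI-5 was below Ctrl in each pair, with a log2 fold change of -0.25 ± 0.059 (SE, adjusted p = 0.0133). VARS transcripts have a GC content of 62.6%, and with a correction for GC content the estimate was -0.069 (adjusted p = 0.255), past no threshold. VARS2 had 65.6, 47.2 and 56.7 CPM in AMI-5 libraries, 67.0, 56.3 and 53.1 CPM in AMI-1 libraries and 66.6, 49.8 and 58.7 CPM in Ctrl libraries, and its estimate was -0.048 ± 0.071 (SE, adjusted p = 0.703).

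AARS2, the mitochondrial alanyl-tRNA synthetase, had 31.8, 21.8 and 28.4 CPM in AMI-5 libraries, 40.3, 27.4 and 30.3 CPM in AMI-1 libraries and 43.8, 25.0 and 34.2 CPM in Ctrl libraries. The groups overlapped, and AMI-5 was below Ctrl in 3 of 3 pairs. Its log2 fold change was -0.31 ± 0.08 (SE, adjusted p = 0.0191), the lowest of the 38. Its cytosolic partner AARS had 287, 229.7 and 278 CPM in AMI-5 libraries, 270.4, 247 and 257 CPM in AMI-1 libraries and 277, 239 and 267 CPM in Ctrl libraries. Those values overlapped, and the AARS estimate was 0.021 ± 0.054 (SE, adjusted p = 0.84).

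EARS2, which charges glutamate in mitochondria, had 37.9, 32.9 and 39.5 CPM in AMI-5 libraries, 38.1, 36.2 and 39.2 CPM in AMI-1 libraries and 42.2, 41.5 and 44.3 CPM in Ctrl libraries. Every AMI-5 and every AMI-1 library lay below every Ctrl library. Log2 fold changes were -0.21 ± 0.068 (SE, adjusted p = 0.0492) for AMI-5 against Ctrl and -0.17 ± 0.068 (SE, adjusted p = 0.381) for AMI-1 against Ctrl, the second past no threshold. DESeq2 did not call EARS2 for AMI-5 (adjusted p = 0.0853).

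Among the other cytosolic enzymes, differences for AMI-5 against Ctrl were mostly positive and none was called. EPRS, the joint enzyme for glutamate and proline, had 245, 336 and 252 CPM in AMI-5 libraries, 197, 297 and 251 CPM in AMI-1 libraries and 206, 316 and 240.3 CPM in Ctrl libraries. Its estimate was 0.14 ± 0.058 (SE, adjusted p = 0.138). KARS, the lysyl enzyme of both compartments, had 171, 174 and 162 CPM in AMI-5 libraries, 163, 188 and 174 CPM in AMI-1 libraries and 166, 201 and 183 CPM in Ctrl libraries. Its estimate was -0.12 ± 0.058 (SE, adjusted p = 0.205), 1 of 5 negative ones among the 20. Estimates just short of the threshold were those of GARS at 0.15 ± 0.05 (SE, adjusted p = 0.0541) and TARS at 0.16 ± 0.054 (SE, adjusted p = 0.0658). The scaffold gene AIMP1 stood at 0.22 ± 0.07 (SE, adjusted p = 0.053), with AIMP2 at 0.037 ± 0.063 and EEF1E1 at 0.019 ± 0.078.

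As a class, 15 of 20 cytosolic enzymes had a log2 fold change above 0 against 5 of 15 mitochondrial ones, beside 49.0% of all genes. The medians were 0.072 for cytosolic and -0.089 for mitochondrial enzymes, with -0.0050 over all genes. AMI-5 exceeded Ctrl in 3 of 3 pairs for 11 cytosolic enzymes (24.7% of all genes did so) and fell short in 3 of 3 for 8 mitochondrial enzymes (28.8% of all genes). Libraries of AMI-5 all lay above those of Ctrl for 2 members, CARS and WARS (3.98% of all genes), and all below for 4, HARS, EARS2, FARS2 and YARS2 (3.36% of all genes). The 8 complex enzymes had a median of 0.107 and the 12 cytosolic enzymes outside the complex 0.058, with both called genes of the cytosol, WARS and VARS, among the 12. After correction for GC content this order turned, to 0.071 for the 8 complex enzymes and 0.092 for the 12 outside it. Enzymes of class I and class II, the families with different catalytic folds, had medians of 0.056 over 18 genes and 0.033 over 16. With the GC correction these were 0.031 and 0.043, again in the opposite order.

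**Figure D2:**
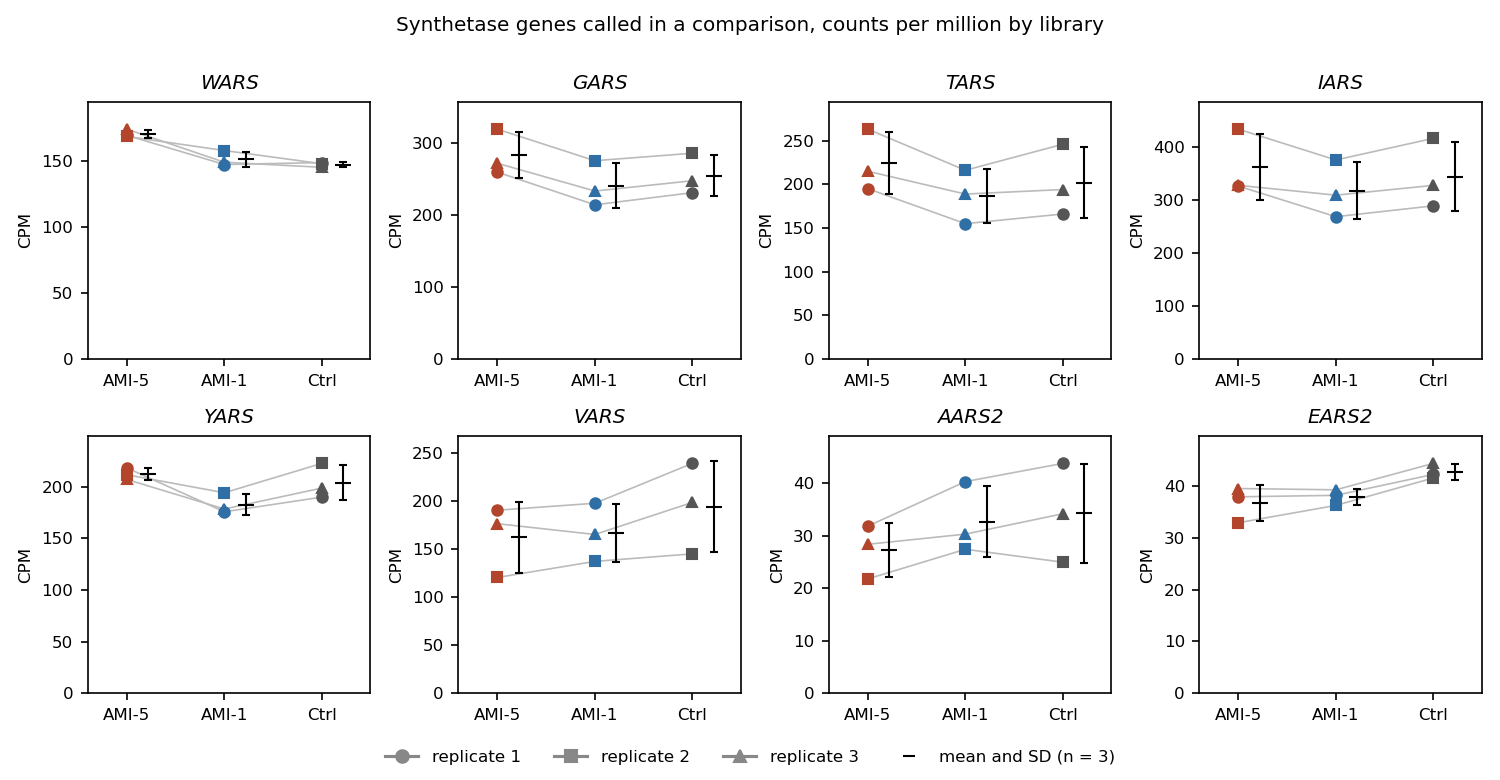
Level of each of the 8 called genes in CPM by library for AMI-5, AMI-1 and Ctrl, with grey lines joining libraries of the same replicate number and black bars giving mean and SD (n = 3). WARS is higher in all AMI-5 libraries than in the others. GARS and TARS are highest in AMI-5 within each replicate number, and GARS, TARS, IARS and YARS are lowest in AMI-1 within each. VARS, AARS2 and EARS2 are lower in AMI-5 than in Ctrl within each number.

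Leaving out single libraries decided these calls. WARS was called in 4 of 9 fits with a library left out, VARS in 5, AARS2 in 5 and EARS2 in 3, while the sign held in all 9 for each. Without AMI-1 replicate 3, a library of neither group in this comparison, 9 members were called higher and 5 lower, against 23.1% of all genes called in that fit. Without Ctrl replicate 1 or 3, or AMI-5 replicate 1 or 2, no member was called in either direction, and 172 to 295 genes were called in all. The fit on AMI-5 and Ctrl alone called 9 members higher (DARS, EPRS, GARS, LARS, NARS, RARS, TARS, WARS and AIMP1) and 5 lower (FARSA, VARS, AARS2, EARS2 and FARS2), against 23.6% of all genes called. Without the replicate term no member was called, and no gene of the 18284 was, with 494 genes at an unadjusted p under 0.05; with DESeq2 and the replicate term WARS, VARS and AARS2 were called, against 7.38% of all genes, and PARS2 had no adjusted p.

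GC content moved with these comparisons: genes that AMI-5 raised had a median transcript GC of 41.5% and those it lowered 58.7%, against 48.1% for all genes tested. The median was 47.7% for cytosolic and 50.8% for mitochondrial enzymes. After correction for GC content 7 cytosolic enzymes were called higher (CARS, GARS, MARS, QARS, TARS, WARS and YARS) and KARS, AARS2 and EARS2 lower, against 5.1% of all genes called higher and 8.06% called lower in that fit. The class medians were then 0.086 for cytosolic and -0.028 for mitochondrial enzymes.

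**Figure D3:**
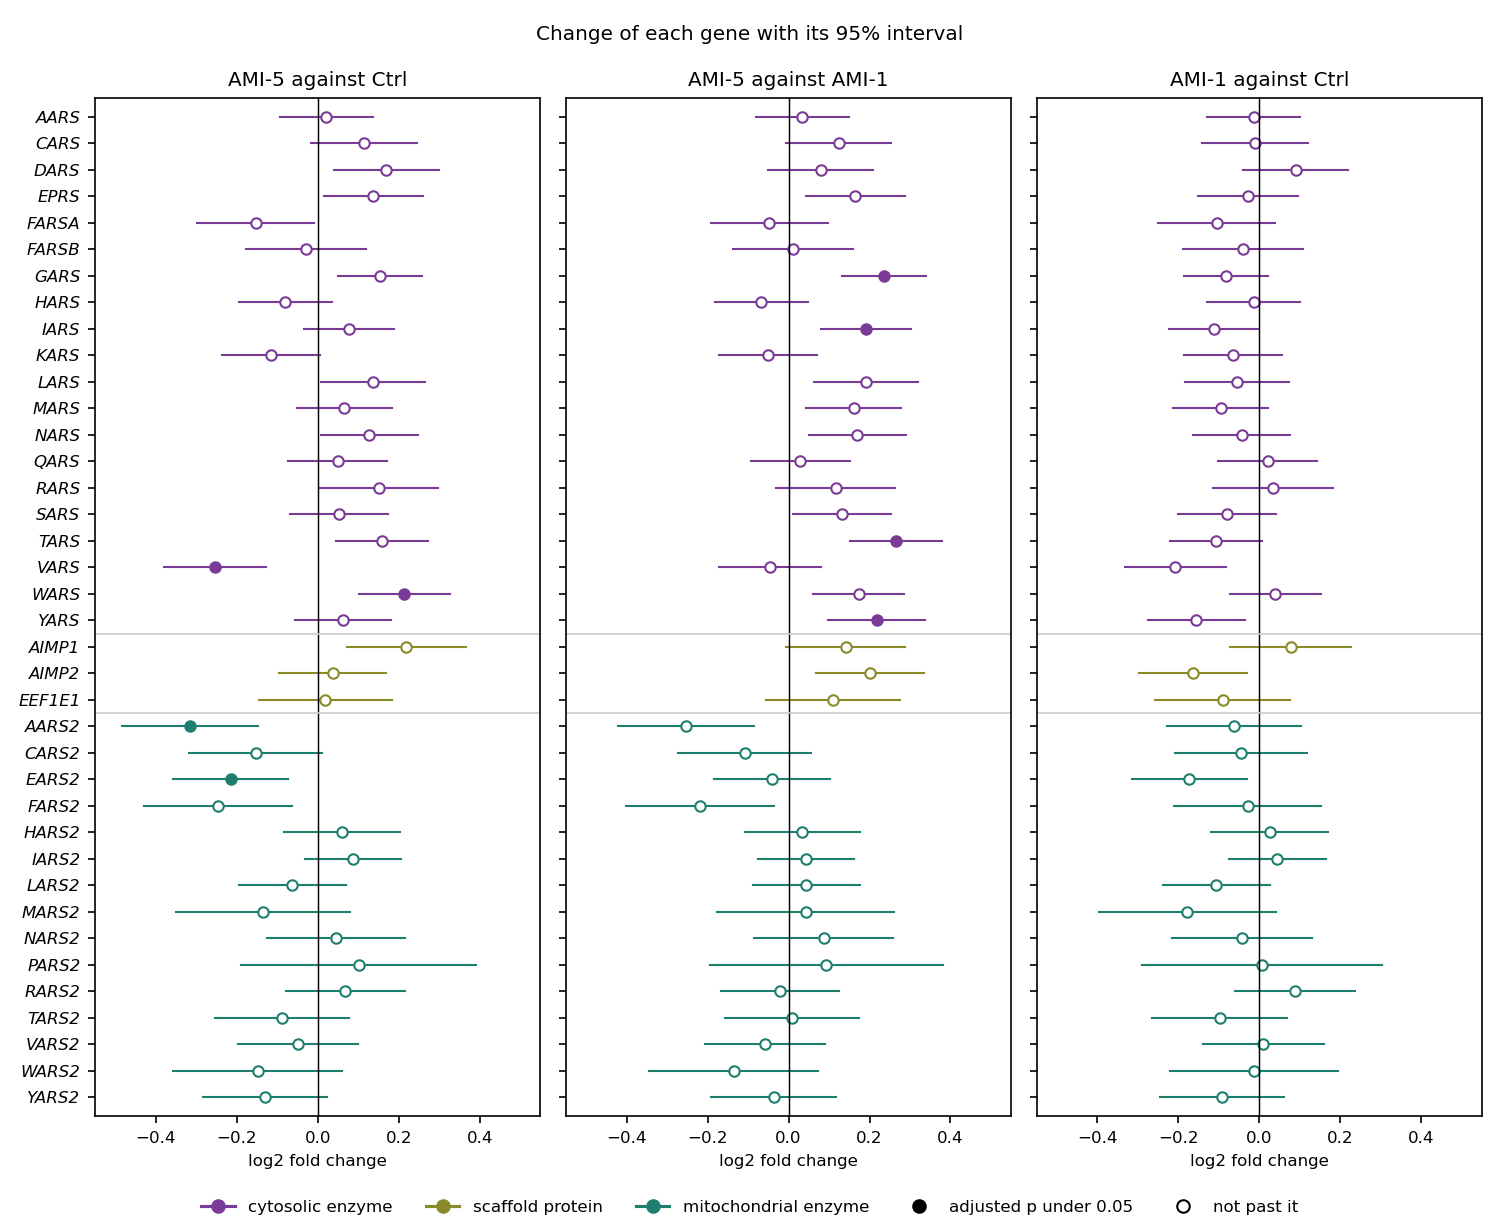
Log2 fold change of each of the 38 genes with its 95% interval from the edgeR fit, for AMI-5 against Ctrl, AMI-5 against AMI-1 and AMI-1 against Ctrl; filled points passed an adjusted p of 0.05. Cytosolic enzymes lie mostly right of 0 in both AMI-5 panels, mitochondrial enzymes mostly left of 0 or near it, and no point is filled in the AMI-1 panel.

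AMI-5 against AMI-1 set the compounds side by side at the same dose and time. TARS, GARS, YARS and IARS were higher in AMI-5, and no member was lower. That was 4 of 20 cytosolic enzymes and 0 of 18 other members, against 5.01% of all genes called in either direction, 1.61% higher and 3.4% lower. At an unadjusted p under 0.05 there were 13 of the 38, against 19.5% of all genes.

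TARS, the threonyl-tRNA synthetase, had 195, 263 and 215 CPM in AMI-5 libraries, 155, 216 and 189 CPM in AMI-1 libraries and 166, 246 and 194 CPM in Ctrl libraries. The groups overlapped through the spread between replicate numbers, and AMI-5 was highest within each number. The log2 fold change against AMI-1 was 0.27 ± 0.054 (SE, adjusted p = 0.00731), the highest of the 38. Mitochondrial TARS2 had 27.7, 20.3 and 24.4 CPM in AMI-5 libraries, 26.0, 21.0 and 24.8 CPM in AMI-1 libraries and 26.5, 21.9 and 28.2 CPM in Ctrl libraries, and its estimate against AMI-1 was 0.0089 ± 0.079 (SE, adjusted p = 0.969).

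GARS, whose product charges glycine in both compartments, had 259, 319 and 272 CPM in AMI-5 libraries, 214, 275 and 233 CPM in AMI-1 libraries and 231, 286 and 247 CPM in Ctrl libraries. Again AMI-5 was highest within each number, and the log2 fold change against AMI-1 was 0.24 ± 0.05 (SE, adjusted p = 0.00928). YARS, the tyrosyl enzyme, had 218, 211 and 207 CPM in AMI-5 libraries, 176, 194 and 178 CPM in AMI-1 libraries and 189.9, 222 and 199 CPM in Ctrl libraries. All AMI-5 libraries exceeded all AMI-1 libraries, and the AMI-5 and Ctrl libraries overlapped. The log2 fold change of YARS against AMI-1 was 0.22 ± 0.057 (SE, adjusted p = 0.0338). YARS2 had 26.0, 25.2 and 26.2 CPM in AMI-5 libraries, 25.7, 26.8 and 26.9 CPM in AMI-1 libraries and 27.5, 29.3 and 28.0 CPM in Ctrl libraries, with an estimate of -0.037 ± 0.073 (SE, adjusted p = 0.835).

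IARS, the isoleucyl enzyme of the complex, had 326, 433 and 327 CPM in AMI-5 libraries, 268, 375 and 309 CPM in AMI-1 libraries and 289, 416 and 327 CPM in Ctrl libraries. AMI-5 exceeded AMI-1 by 0.19 ± 0.053 (SE, adjusted p = 0.0447) on the log2 scale. Within each number AMI-1 was the lowest of the 3 groups for IARS, and likewise for TARS, GARS and YARS. Part of each difference between the compounds was thus a value in AMI-1 below that in Ctrl. IARS2 had 149, 186 and 160.3 CPM in AMI-5 libraries, 135, 179.9 and 168 CPM in AMI-1 libraries and 131, 182 and 155 CPM in Ctrl libraries, with an estimate of 0.043 ± 0.057 (SE, adjusted p = 0.734).

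The difference between the compounds missed the threshold for WARS, where it was 0.17 with a 95% interval of 0.061 to 0.29 (adjusted p = 0.0704). It missed it for AARS2 too, at -0.25 with an interval of -0.42 to -0.084 (adjusted p = 0.0785). For VARS the difference was -0.046, with an interval of -0.17 to 0.079, and for EARS2 -0.042, with an interval of -0.18 to 0.10. The scaffold gene AIMP2 was at 0.20 ± 0.063 (SE, adjusted p = 0.0751), with every AMI-5 library above every AMI-1 library.

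The median log2 fold change of AMI-5 against AMI-1 was 0.128 for cytosolic and -0.021 for mitochondrial enzymes, with -0.0063 over all genes. Of cytosolic enzymes 16 of 20 were above 0, of mitochondrial ones 7 of 15, and of all genes 48.4%. The mitochondrial median turned to 0.010 after GC correction, while the cytosolic one was 0.134. The corrected fit called 11 cytosolic enzymes and AIMP2 higher, against 4.71% of all genes. DESeq2 called TARS, GARS, YARS and IARS too, against 3.81% of all genes. All AMI-5 libraries lay above all AMI-1 libraries for 5 members, CARS, MARS, WARS, YARS and AIMP2 (4.21% of all genes), and below for 2, HARS and FARS2 (3.28% of all genes). TARS was called in 7 of 9 fits with a library left out, GARS in 6, YARS in 6 and IARS in 2, all with the same sign. No member was called higher without AMI-1 replicate 1 or without AMI-5 replicate 1, where 198 and 195 genes were called in all. Without AMI-1 replicate 3 there were 11 higher and 2 lower, against 18.6% of all genes called. The fit on AMI-5 and AMI-1 alone called GARS and TARS, against 3.77% of all genes, and without the replicate term no gene was called, with 483 at an unadjusted p under 0.05.

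AMI-1 against Ctrl gave no call among the 38 genes by edgeR or by DESeq2, against 0.421% of all genes by edgeR (0.241% higher and 0.18% lower) and 0.41% by DESeq2. Counts at an unadjusted p under 0.05 were 5 of 38 members and 10.1% of all genes. The shifts furthest from 0 were those of VARS at -0.21 ± 0.059 (SE, adjusted p = 0.186), MARS2 at -0.18 ± 0.10 (SE, adjusted p = 0.586) and EARS2 at -0.17 ± 0.068. Estimates leaned downwards: 16 of 20 cytosolic and 10 of 15 mitochondrial enzymes were below 0, with medians of -0.049 and -0.042, beside -0.0019 over all genes, of which 49.5% were above 0. AMI-1 was below Ctrl in 3 of 3 pairs for 10 of 20 cytosolic enzymes, against 15.7% of all genes, and above it in 3 of 3 for DARS, against 14.4%. Every AMI-1 library lay below every Ctrl library for MARS, AIMP2, EARS2 and YARS2, 4 of 38 against 2.06% of all genes, and above for 0 of 38 against 1.94%. After GC correction IARS, TARS and VARS were called lower, against 1.87% of all genes. Without AMI-1 replicate 2 there was 1 member called lower, and 308 genes were called in all, in either direction. The 95% intervals of the 20 cytosolic enzymes ran from -0.33 at the lowest (VARS) to 0.22 at the highest (DARS) on the log2 scale.

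The difference between compartments was summarised for each library as the mean log2 CPM of the 20 cytosolic enzymes minus that of the 15 mitochondrial ones. GARS and KARS, whose products serve both compartments, were counted among the 20. The difference for a library is called its balance. The balance was 2.49, 2.69 and 2.52 in AMI-5 replicates 1 to 3, 2.30, 2.57 and 2.40 in AMI-1, and 2.33, 2.57 and 2.40 in Ctrl. Within a replicate number AMI-5 was the highest of the 3 groups each time, and the groups overlapped across numbers. AMI-5 minus Ctrl was 0.158, 0.125 and 0.115 in the pairs, with a mean of 0.133 ± 0.023 (SD, n = 3). AMI-5 minus AMI-1 was 0.181, 0.121 and 0.113, with a mean of 0.138 ± 0.037. AMI-1 minus Ctrl was -0.022, 0.0035 and 0.0024, with a mean of -0.0055 ± 0.015. With medians over members in place of means the pair values scattered more, at 0.040, 0.097 and 0.249 for AMI-5 minus Ctrl (SD 0.108) and at -0.245, 0.039 and 0.100 for AMI-1 minus Ctrl (SD 0.184). No p is given for this score, since its genes were chosen with earlier results of these data known.

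The distance of the AMI-5 class means from Ctrl varied between pairs, and was not tested. Against Ctrl the cytosolic mean differed by 0.113, -0.0085 and 0.051, with a mean of 0.052 ± 0.061 (SD). The mitochondrial mean differed by -0.045, -0.133 and -0.064, with a mean of -0.081 ± 0.046 (SD). These means carry no GC correction, and in the corrected fit the mitochondrial median for AMI-5 against Ctrl was -0.028 in place of -0.089. AMI-1 lay below Ctrl on average in both classes, by a mean of -0.052 for cytosolic and -0.046 for mitochondrial enzymes over the 3 pairs.

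**Figure D4:**
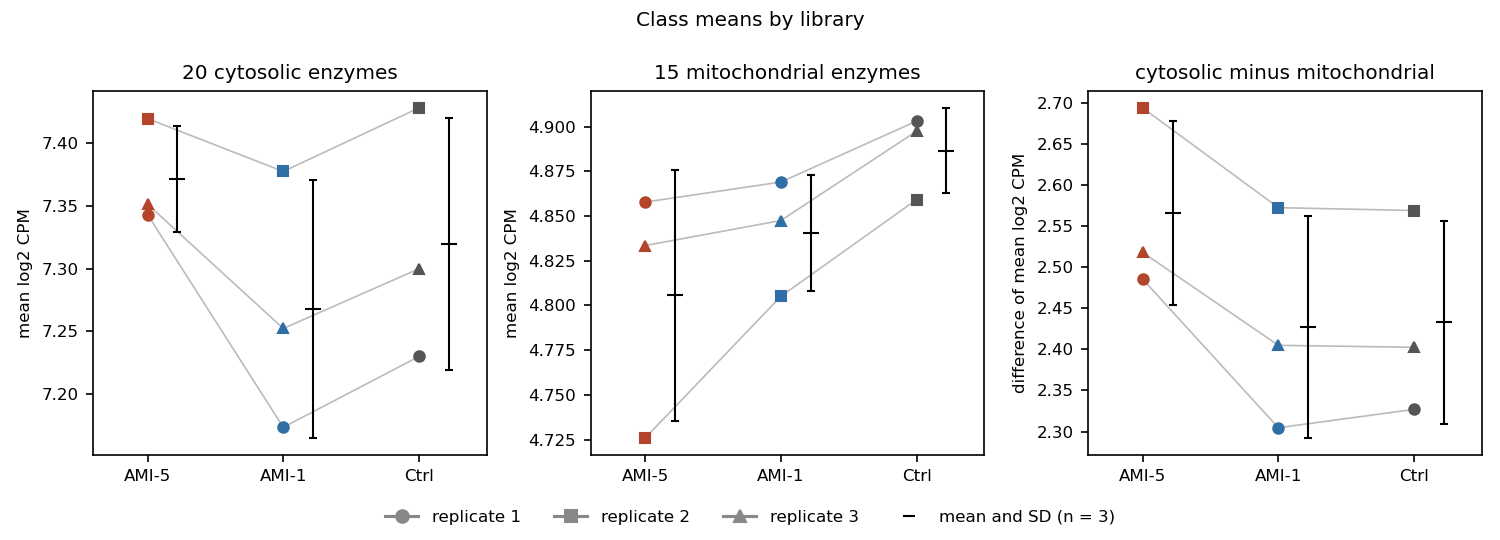
Mean log2 CPM of the 20 cytosolic enzymes, of the 15 mitochondrial enzymes, and their difference, by library for AMI-5, AMI-1 and Ctrl; grey lines join libraries of the same replicate number, and black bars give mean and SD (n = 3). On the right each line runs from a high AMI-5 value to AMI-1 and Ctrl values that differ by 0.022 or less, and the vertical axes do not start at 0.

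Pair by pair, the cytosolic enzyme gained on its mitochondrial partner in 3 of 3 replicate numbers for 8 of 12 amino acids in AMI-5 against Ctrl, and lost in 3 of 3 for HARS and VARS. The mean gain in log2 was 0.361 for WARS over WARS2, 0.326 for AARS over AARS2, 0.273 for CARS over CARS2 and 0.245 for TARS over TARS2. The mean difference was -0.205 for VARS relative to VARS2 and -0.141 for HARS relative to HARS2. For IARS relative to IARS2 the mean difference was -0.0098. Against AMI-1, AMI-5 gave gains in 3 of 3 numbers for 7 of 12 pairs and a loss in 3 of 3 for HARS. AMI-1 against Ctrl gave gains in 3 of 3 for 0 of 12 pairs, and losses for 4 (HARS, IARS, VARS and YARS). The mean VARS difference was -0.219 in AMI-1 against Ctrl. No share over other gene pairs stands beside these counts. HARS and HARS2 share a promoter region and overlap head to head, and their estimates in AMI-5 against Ctrl were -0.081 ± 0.055 and 0.059 ± 0.068. Reads from the overlap of HARS and HARS2 cannot be told apart, since strand use in the counting is not given.

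Cytosolic enzymes with and without the ATF4-type site had overlapping values. For AMI-5 against Ctrl the 6 with TGATGCAA had a median log2 fold change of 0.096, and 6 of 6 were above 0 with 0 called. The 10 searched without it, GARS with its looser site among them, had a median of 0.051, 6 above 0 and 1 called higher, WARS. Of all genes 3.42% were called higher. Against AMI-1 the medians were 0.166 with the site (2 called, IARS and TARS) and 0.073 without it (1 called, GARS). Beside these, 1.61% of all genes were called higher in AMI-5 against AMI-1. For AMI-1 against Ctrl the medians were -0.069 with 6 of 6 below 0, and -0.034 with 7 of 10 below 0. After GC correction 3 of the 6 with the site (CARS, MARS and TARS) were called higher for AMI-5 against Ctrl. Of the 10 without it, 3 were called higher (GARS, QARS and WARS) and KARS lower, against 5.1% and 8.06% of all genes. Against AMI-1 the corrected fit called 5 of 6 higher with the site and 4 of 10 without it, against 4.71% of all genes. For AMI-1 against Ctrl it called 2 of 6 lower with the site and 0 of 10 without it, against 1.87% of all genes.

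**Figure D5:**
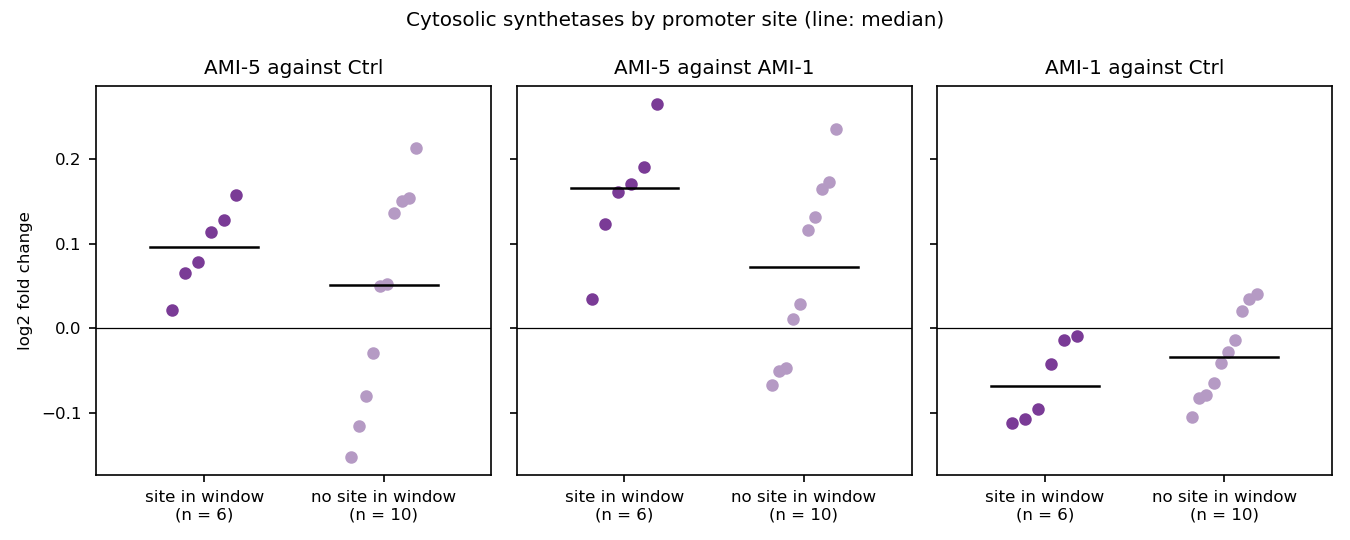
Log2 fold change of the cytosolic enzymes with a promoter window, divided by whether TGATGCAA was found in it (6 genes) or not (10 genes), for AMI-5 against Ctrl, AMI-5 against AMI-1 and AMI-1 against Ctrl; black lines are medians. The genes with the site lie above 0 in both AMI-5 panels and below 0 in the AMI-1 panel, and their range overlaps that of the genes without it in each panel.

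Other ATF4-related genes were read in a list of 36 that holds none of the 38. For AMI-5 against Ctrl 6 rose and 0 fell, against 3.42% of all genes called higher and 7.45% lower. After GC correction 17 were called higher and 1 lower (SLC38A2), against 5.1% and 8.06% of all genes. SLC7A11, the cystine importer, had 53.7, 125 and 69.7 CPM in AMI-5 libraries and 28.2, 58.7 and 36.6 CPM in Ctrl libraries, a log2 fold change of 0.99 ± 0.078 (SE, adjusted p = 1.45e-06). ASNS, asparagine synthetase, had 32.4, 47.6 and 40.3 CPM in AMI-5 libraries and 17.7, 28.5 and 21.5 CPM in Ctrl libraries, a change of 0.84 ± 0.08 (SE, adjusted p = 1.41e-05). The serine synthesis genes PSAT1 and PHGDH changed by 0.47 ± 0.063 and 0.32 ± 0.065, and the other called genes were CHAC1 and ATF3. Every AMI-5 library was above the Ctrl library of its number for these 6 genes. The median of the list was 0.099, beside 0.072 for the cytosolic enzymes, and 0.188 beside 0.086 after GC correction. Against AMI-1, 7 of the 36 were higher in AMI-5 and STC2 and PPP1R15A were lower, against 1.61% and 3.4% of all genes. The GC-corrected counts there were 24 higher and 3 lower, against 4.71% and 6.38% of all genes. For AMI-1 against Ctrl STC2 alone was called in the fit without GC correction, at 0.47 ± 0.081, against 0.241% of all genes called higher. After GC correction 3 of the 36 were called higher and 2 lower, beside 225 and 342 of the 18284 genes tested.

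Genes for the handling of transfer RNA outside charging, and of translation, were read against the same 3.42% of all genes called higher and 7.45% lower for AMI-5 against Ctrl. XPOT, the exporter that carries mature tRNA out of the nucleus, had 141, 200.4 and 145 CPM in AMI-5 libraries, 108, 162 and 128 CPM in AMI-1 libraries and 111, 178 and 122 CPM in Ctrl libraries. It was higher in AMI-5 within each number, by 0.25 ± 0.058 (SE, adjusted p = 0.0124) against Ctrl and 0.29 ± 0.058 (SE, adjusted p = 0.00704) against AMI-1. In the list of 25 tRNA maturation and export genes it was the only one called higher for AMI-5 against Ctrl, while RPP21, TP53RK and TSEN54 were called lower. After GC correction XPOT, RPP25, POP4 and TSEN34 were called higher and RPP21 and TP53RK lower. The corrected counts here and in the lists below stand against 5.1% of all genes called higher and 8.06% lower in that fit. Of 35 tRNA modification genes 0 rose and 4 fell (CTU2, DUS1L, DUS3L and ADAT3), and after GC correction none of these 4 was called, while NSUN2 and ELP4 were called lower. Of 10 cytosolic elongation factor genes, GTPBP1, EEF1G, EEF2 and EIF5A fell and EIF5A2 rose, and after GC correction GTPBP1 and EEF1G were the 2 called. Of 17 mitochondrial translation factors MTIF2 rose, at 0.22 ± 0.069 (SE, adjusted p = 0.0488), and of 14 genes of GCN2 and eIF2 sensing EIF2AK2 rose and EIF2B5 fell. With the GC correction MTIF2 was not called and ICT1 was lower, and of the sensing genes EIF2AK3 was higher and EIF2AK4 and EIF2B5 lower. For AMI-1 against Ctrl these 5 lists had 0 calls by edgeR, against 0.421% of all genes. At an unadjusted p under 0.05 the tRNA modification list had 10 of 35 genes, against 10.1% of all genes. The elongation factor list had 3 of 10, and the others had 0 to 1 each. After GC correction 4 tRNA modification genes and 1 elongation factor gene were called lower, and 0 in the others, against 1.87% of all genes.

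Some endothelial and fibroblast markers moved with AMI-5 too. Of 12 endothelial markers 5 fell (ENG, CDH5, ROBO4, TIE1 and ERG) and ESAM rose against Ctrl. Beside them, 7.45% of all genes were called lower and 3.42% higher. Of 5 fibroblast and mural markers COL1A1 alone was called, lower by 0.32 on the log2 scale (SE 0.073, adjusted p = 0.0126). Estimates of 2 of these 5 were above 0, the highest at 0.57. The part of these markers in the synthetase values was not tested. Strand use in the counting is not given in the sources used here, so reads of genes that overlap on opposite strands cannot be told apart. These include WARS and WDR25, GARS and GARS-DT, YARS and S100PBP, KARS and TERF2IP, and MARS and DDIT3. They also include AARS2 and TMEM151B, EARS2 and UBFD1, AIMP2 and EIF2AK1, HARS and HARS2, and CARS and CARS-AS1. DARS and DARS-AS1, CARS2 and ING1, and AIMP1 and TBCK overlap in the same way. On the same strand, VARS2 overlaps GTF2H4 and HARS2 overlaps ZMAT2.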

How the data were processed

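The authors deposited raw read counts per gene in a pair of tables that share the Ctrl libraries. The notes on processing by the submitters name the build hg19 and the tools BWA and bedtools, with no version. RNA was poly-A enriched per the labels' protocols. Control counts did not differ between the tables. Each table held only genes with a mean count of at least 10, so genes in both tables were used. In edgeR 4.0.16 (R 4.3.3) a quasi-likelihood F test was fitted to all 9 libraries with TMM, filterByExpr (9 genes removed, 18284 tested) and Benjamini-Hochberg adjustment. Standard errors were taken from the F statistic, with 95% intervals. Log2 CPM used a prior count of 2.

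Replicate number was a term of the fit: deviations from the group means correlated at 0.388 to 0.931 between libraries with 1 number (9 pairs) and at -0.878 to 0.294 between numbers. The labels give the libraries of 1 number a common code and do not say what it stands for. The biological coefficient of variation was 5.64% with the replicate term and 23.7% without it. GC correction used lowess curves (span 0.3) on transcript GC content over 14761 genes. Lengths and GC came from GENCODE on GRCh38, while the build named for the counts was hg19. The only coordinates given are those of the promoter sites, on GRCh38. Alternatives were the fit without the replicate term, GC correction, DESeq2 1.42.0, its size factors in edgeR, no low-count filter, 2 groups alone, each library left out, and other lengths. The method was run on simulated data whose changes were larger than those of the called members, so that run does not cover changes of their size.

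The members and lists were chosen with earlier results of these data known. Values per library are given for called members, for WARS, GARS, KARS, EPRS and AARS, and for their mitochondrial partners. Of each other list, counts and up to 4 genes with the lowest adjusted p were to be named, and further called genes were named after their values were seen. GATC, with a pair of rows, was left out. The list of RNA polymerase III genes is not reported here.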

Additional observations from a re-analysis of the deposited data

How the results depend on the processing

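Without the replicate block no gene passed the threshold in any comparison, and the member counts were 0 higher and 0 lower. The block also left the direction of each called member as it was. That fit moved the cytosolic median of AMI-1 against Ctrl to -0.056. With the replicate block and GC correction together, 567 genes were called for AMI-1 against Ctrl and 2028 for AMI-5 against AMI-1; members called were 3 lower for AMI-1, and 7 and 12 higher for AMI-5 against Ctrl and against AMI-1. Medians were then -0.064 cytosolic and -0.024 mitochondrial for AMI-1 against Ctrl, and -0.028 mitochondrial for AMI-5 against Ctrl; the cause was not tested. Fits on 2 groups alone called 4286 genes, 9 members higher and 5 lower for AMI-5 against Ctrl, 2 members higher for AMI-5 against AMI-1, and gave a mitochondrial median of -0.036 for AMI-1 against Ctrl. Balance by medians over members gave -0.035 for AMI-1 minus Ctrl. The ratio of class levels in Ctrl was 9.44 with median transcript length and 4.78 with the union of exon bases, which was chosen after seeing the data. DESeq2 size factors and the lack of a low-count filter changed no call of the 8 members, and DESeq2's own test lost EARS2.

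With single libraries left out, genes called ranged from 14 to 308 for AMI-1 against Ctrl, 172 to 4232 for AMI-5 against Ctrl and 195 to 3408 for AMI-5 against AMI-1. Members called ranged from 0 to 1 lower for AMI-1 against Ctrl, 0 to 9 higher and 0 to 5 lower for AMI-5 against Ctrl, and 0 to 11 higher and 0 to 2 lower for AMI-5 against AMI-1. Cytosolic medians ranged from -0.074 to -0.015, 0.048 to 0.118 and 0.098 to 0.171 in the same order, and mitochondrial medians from -0.078 to -0.023, -0.128 to -0.051 and -0.062 to 0.0056. Leaving out a replicate number gave balances of -0.010 to 0.0029 for AMI-1 minus Ctrl, 0.120 to 0.142 for AMI-5 minus Ctrl and 0.117 to 0.151 for AMI-5 minus AMI-1. A group of 3 libraries and the spread between replicate numbers limit what these counts resolve; PARS2, the member with the lowest count, had a 95% interval of -0.19 to 0.39 for AMI-5 against Ctrl.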
